A study of Rattus with 6 samples.

Results

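Ctnnb1, which encodes beta-catenin, and Ccnd1, Myc and Cd44, which are widely used as readouts of beta-catenin activity, were examined in RNA sequencing of the pituitary line RC-4B/C. The genes were taken by symbol from the deposited exon table. They are 4 of its 12801 genes and hold 39 of its 118147 exons, 13 for Ctnnb1, 5 for Ccnd1, 2 for Myc and 19 for Cd44, and each symbol stood on a single gene identifier. RC-4B/C was established from a rat pituitary adenoma. In the ASA group, with 3 libraries, the cells had received aspirin (acetylsalicylic acid), which blocks the cyclooxygenases. In the DMSO group, with 3 libraries, they had received the solvent dimethyl sulfoxide. All 6 libraries came from the same line, and the labels give neither a dose nor a duration. Nothing in the labels says whether a group's libraries stem from different cultures. The p-values therefore measure the spread between these libraries, which may be technical. The second line named in the series design, GH3, was not analysed here. The comparison of ASA with DMSO asks how aspirin alters the transcripts of these cells.

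Beta-catenin has a pair of roles. At the membrane it joins cadherins to the cytoskeleton through alpha-catenin. In the cytoplasm a destruction complex of APC, axin, GSK3 and casein kinase 1 marks it for degradation, and when Wnt ligands engage Frizzled and LRP receptors it escapes, enters the nucleus and switches on genes with TCF/LEF factors. This control acts on the protein, so the Ctnnb1 transcript does not report how active beta-catenin is. In the pituitary, beta-catenin takes part in lineage commitment, and activating mutations of it mark a class of craniopharyngioma. Cyclin D1 activates the kinases that start the cell division cycle, MYC is a transcription factor that drives growth and ribosome production, and CD44 is the surface receptor for hyaluronan. All of these genes also answer to other signals, including growth factor pathways.

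The reads in the listed exons numbered between 66492444 and 94486064 per library. Levels are in RPKM, the reads on a gene or exon divided by its listed length in kilobases and by the library's reads in units of 1000000. The pituitary identity of the line showed in Prl, which encodes prolactin, at 14037, 62101 and 26174 RPKM in ASA replicates 1, 2 and 3 and 22006, 62170 and 41835 RPKM in DMSO replicates 1, 2 and 3. Replicate numbers only name the libraries. ASA replicate 2 stood apart: 497 of its exons had no reads, against 4 to 13 in the other 5 libraries. Over the 7366 tested genes with at least 6 exons, the log2 ratio of a gene's 5' exons to its 3' exons (split at the middle exon), relative to the DMSO mean, had quartiles of -0.54 and 0.37 in ASA replicate 2. Among the other 5 libraries the quartiles lay between -0.10 and 0.11. Gene values in ASA replicate 2 therefore depend on which exons are counted. Results are given with and without this library where it matters, except for the correlations between genes.

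Ctnnb1 was the only one of the 4 genes that passed the test, and it was lower with ASA. It had 119, 99.6 and 97.3 RPKM in ASA replicates 1, 2 and 3, against 179, 150 and 172 RPKM in DMSO replicates 1, 2 and 3. Every ASA library lay below every DMSO library. The ASA mean was 105 ± 11.7 and the DMSO mean 167 ± 15 RPKM (SD, n = 3 each), a 1.59-fold fall (log2 fold change -0.67 ± 0.17 SE, 95% interval -1.07 to -0.27). The adjusted p was 0.0467 in limma on log2(RPKM + 0.1) with Benjamini-Hochberg adjustment over 12502 genes. In that test 11.2% of all genes passed the threshold of 0.05, made up of 6.21% higher and 4.99% lower with ASA. Ctnnb1 thus sat close to the threshold, and its call did not withstand every choice. It was lost without ASA replicate 3 (adjusted p = 0.149), DMSO replicate 1 (0.180), DMSO replicate 2 (0.0834) or DMSO replicate 3 (0.222). Those fits called 0, 0.728, 5.06 and 0% of all genes in that order, so losing a call there was not particular to Ctnnb1. The call was also lost when the libraries were rescaled by their median ratio (limma adjusted p = 0.0559), in a fit that called 12.6% of all genes. Of the 13 settings computed, 6 called Ctnnb1. The fall stayed between 1.53-fold and 1.69-fold whichever library was dropped.

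Ccnd1 and Cd44 had higher values in all ASA libraries, but neither passed the test. Ccnd1 had 437, 646 and 418 RPKM in ASA replicates 1, 2 and 3, against 286, 318 and 266 RPKM in DMSO replicates 1, 2 and 3. The groups did not overlap, and ASA replicate 2 was the highest library. The means were 499.9 ± 126 with ASA and 290.1 ± 26.4 with DMSO (SD, n = 3 each), with a log2 fold change of 0.76 ± 0.22 (95% interval 0.25 to 1.27, adjusted p = 0.0630 in limma).

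Cd44 had 216, 322 and 240.1 RPKM in ASA replicates 1, 2 and 3, against 158, 167 and 157 RPKM in DMSO replicates 1, 2 and 3. The DMSO libraries lay close together, the ASA libraries were all above them, and ASA replicate 2 was again the highest. The means were 259 ± 55.1 with ASA and 161 ± 5.79 with DMSO (SD, n = 3 each), with a log2 fold change of 0.67 ± 0.19 (95% interval 0.22 to 1.12, adjusted p = 0.0639 in limma). Both genes passed when ASA replicate 2 was left out, with smaller folds, in a fit that called 20.9% of all genes. Ccnd1 was then 1.48-fold higher (adjusted p = 0.0368) and Cd44 1.42-fold (adjusted p = 0.0363). Cd44 also passed without ASA replicate 1, at 1.73-fold (adjusted p = 0.0417), in a fit that called 16.2% of all genes. Dropping each of the 6 libraries in turn gave adjusted p of 0.0368 to 0.254 for Ccnd1 and 0.0363 to 0.246 for Cd44.

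Myc differed least. It had 87.9, 71.9 and 102 RPKM in ASA replicates 1, 2 and 3, against 63.7, 70.5 and 70.2 RPKM in DMSO replicates 1, 2 and 3. ASA replicate 2 was level with the upper DMSO libraries, so the groups were separated by little more than 1 RPKM. The means were 87.2 ± 14.9 with ASA and 68.1 ± 3.87 with DMSO (SD, n = 3 each), with a log2 fold change of 0.34 ± 0.19 whose 95% interval of -0.09 to 0.78 included 0 (adjusted p = 0.257 in limma). Without ASA replicate 2 the value was 1.39-fold higher with ASA, and still did not pass (adjusted p = 0.0511, the lowest of a range up to 0.525 when each library was dropped in turn).

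All 4 genes had groups that did not overlap, 3 higher and 1 lower with ASA. For Myc this rested on ASA replicate 2, whose 71.9 RPKM lay just above the highest DMSO library at 70.5 RPKM. Separation is common in the table. It held for 19.9% of the tested genes with ASA higher and 18.8% with ASA lower, so it alone sets these genes little apart. The direction of each of the 4 genes was the same under all 13 settings computed, including a rescaling of the libraries by their median ratio. The median log2 fold change of all tested genes was -0.06.

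**Figure D1:**
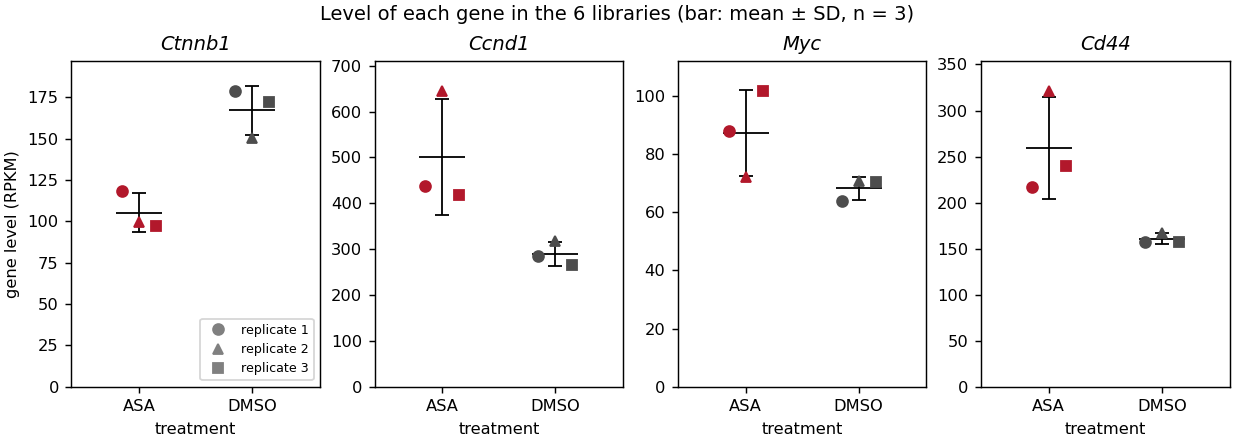
Gene level in RPKM (vertical axes start at 0) of Ctnnb1, Ccnd1, Myc and Cd44 in the 3 ASA and 3 DMSO libraries, with marker shape giving the replicate and the bars the mean ± SD. Ctnnb1 lies at 97.3 to 119 with ASA and 150 to 179 with DMSO, while ASA replicate 2 is the highest library for Ccnd1 and Cd44 and the lowest ASA library for Myc.

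**Figure D2:**
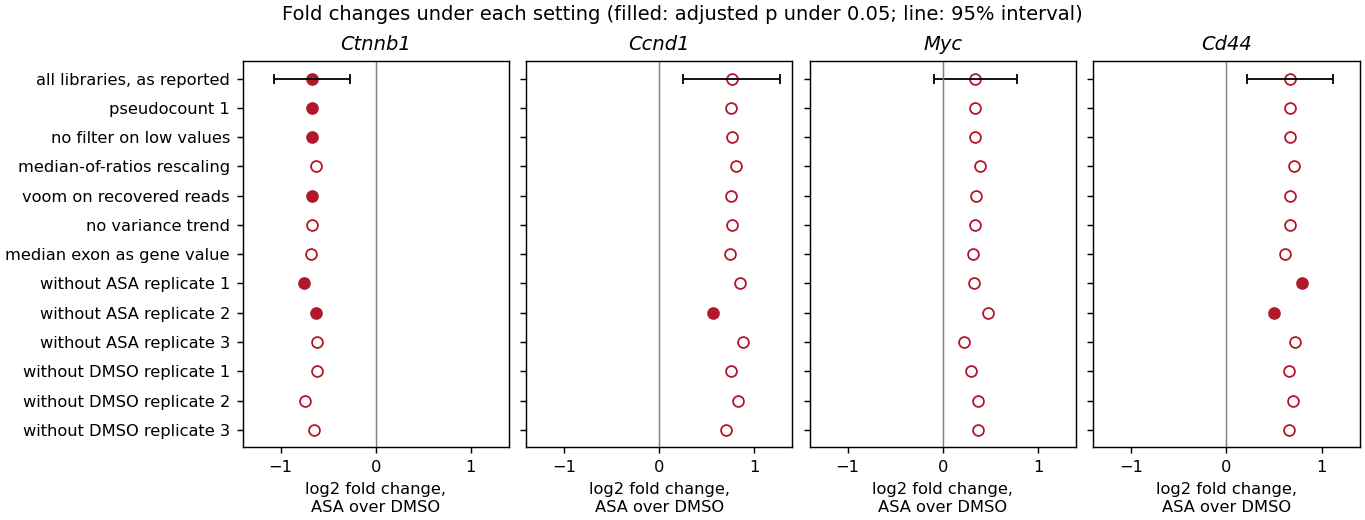
Log2 fold change of ASA over DMSO for each gene under each of the 13 settings, filled where the adjusted p was under 0.05, with the 95% interval of the fit to all libraries. All points of a gene stay on the same side of 0, and the filled points change with the library left out.

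In level per length, Ccnd1 was the highest of the 4 genes in every library. Myc was the lowest in 5 of the 6 libraries, and in ASA replicate 3 it stood at 102 RPKM against 97.3 for Ctnnb1. Cd44 exceeded Ctnnb1 in all 3 ASA libraries. With DMSO, Ctnnb1 was the higher in replicates 1 and 3 and Cd44 in replicate 2, so there these neighbours did not differ beyond their spread. By the mean of all 6 libraries Ccnd1 stood at 395 RPKM, above 97.8% of the tested genes, Cd44 at 210.0, Ctnnb1 at 136 and Myc at 77.7 RPKM, above 81.8% of them.

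The lower level of Ctnnb1 showed in nearly all of its listed exons. The listed exons span 129618172 to 129627359 of chromosome 8 on the plus strand (Rnor_6.0, ENSRNOG00000054172). In 12 of 13 exons all ASA libraries lay below all DMSO libraries, where 16.6% of all exons tested did so. The mean log2 difference of an exon ran from -0.97 to -0.21. The exception was the 12th listed exon, of 61 bases, which had 65.5, 67.3 and 52 RPKM in ASA replicates 1, 2 and 3 and 75.3, 65.6 and 72 RPKM in DMSO replicates 1, 2 and 3. It also had the lowest level of the gene's exons. Relative to its gene, its use was 0.46 ± 0.16 (log2, SE) higher with ASA. It was the only one of the 39 exons with an unadjusted p under 0.05, and it did not pass adjustment over 116232 exons (limma adjusted p = 0.784).

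ASA replicate 2 was uneven along Ctnnb1, with relative exon use from -0.86 to 0.67 of the DMSO mean on the log2 scale, where ASA replicates 1 and 3 averaged between -0.07 and 0.35. The 6th listed exon shows it. It had 209, 96.5 and 166 RPKM in ASA replicates 1, 2 and 3 and 312, 258 and 309.7 RPKM in DMSO replicates 1, 2 and 3.

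The 5 exons of Ccnd1 all had higher values in every ASA library than in any DMSO library, where 17.4% of all exons tested did so. They lie between 218093549 and 218100147 of chromosome 1 on the minus strand (Rnor_6.0, ENSRNOG00000020918). Averaged over ASA replicates 1 and 3, the relative use of each of these exons lay within -0.04 to 0.06 (log2) of the DMSO mean. On that average the exons kept their proportions. In ASA replicate 2 it ran from -0.83 to 0.60. The third listed exon had 404, 908 and 375 RPKM in ASA replicates 1, 2 and 3 and 259.8, 293 and 251 RPKM in DMSO replicates 1, 2 and 3. The last listed exon had 526, 435 and 516 RPKM in ASA replicates 1, 2 and 3 and 346, 382 and 316 RPKM in DMSO replicates 1, 2 and 3. The high gene value of ASA replicate 2 was thus carried by the middle exons.

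Myc has 2 listed exons, between 102588478 and 102590793 of chromosome 7 on the plus strand (Rnor_6.0, ENSRNOG00000004500). The first had 82.3, 85.7 and 92.3 RPKM in ASA replicates 1, 2 and 3, against 59.3, 65.6 and 63 RPKM in DMSO replicates 1, 2 and 3, with no overlap. The second had 95.6, 53.4 and 115 RPKM in ASA replicates 1, 2 and 3, against 69.5, 77.3 and 79.9 RPKM in DMSO replicates 1, 2 and 3. ASA replicate 2 lay above all DMSO libraries in the first exon and below all of them in the second, so its Myc level cannot be placed relative to DMSO from these exons.

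**Figure D3:**
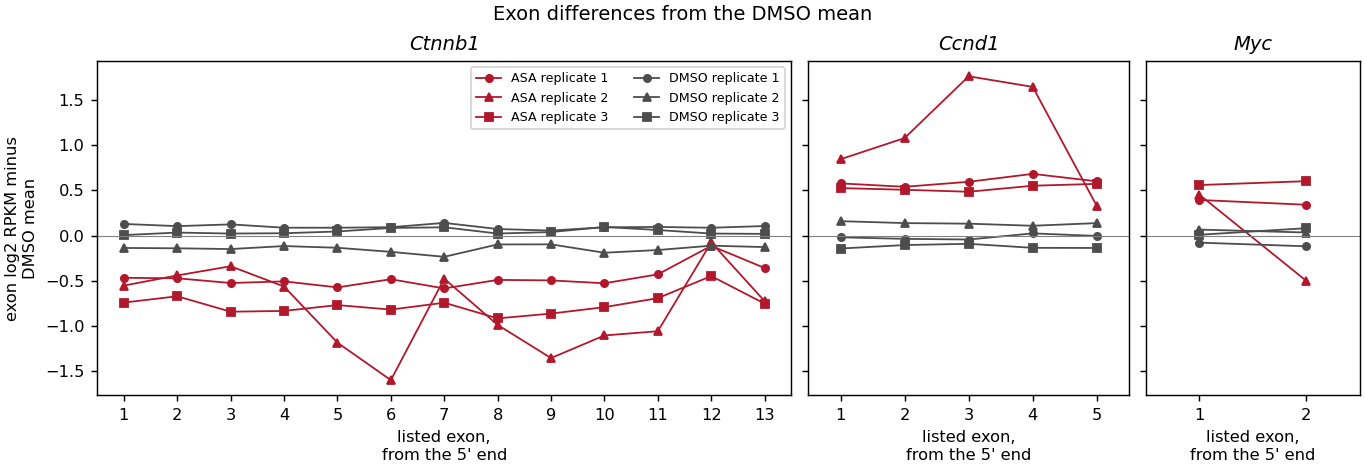
Exon log2 RPKM minus the DMSO mean of that exon for Ctnnb1, Ccnd1 and Myc, with exons in order from the 5' end and a line for each library. ASA replicates 1 and 3 run nearly flat, below 0 in Ctnnb1 with a rise at the 12th exon and above 0 in Ccnd1 and Myc, while ASA replicate 2 swings along each gene.

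Cd44 is a gene in which alternative splicing matters, since the exons in its middle are included or skipped and give isoforms with different extracellular stems. The listed exons span 92697836 to 92783546 of chromosome 3 on the minus strand (Rnor_6.0, ENSRNOG00000006094). The 6th to the 15th of the 19 listed exons were taken as the variable ones from their number, place and lengths, without a transcript annotation. The division was made after the values were seen, and the values for variable and constant exons below rest on it. The 9 constant exons averaged 278 to 782 RPKM over all libraries and the 10 variable exons 7.83 to 133 RPKM, so every variable exon averaged below every constant one. Among the variable exons the level was lowest at the 5' end of the block and highest in the 13th listed exon.

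Of the 9 constant exons 7 had every ASA library above every DMSO library, and of the 10 variable exons 3, the 13th, 14th and 15th, against 17.4% of all exons tested. Averaged by length, the constant exons had 368, 609 and 404 RPKM in ASA replicates 1, 2 and 3 and 282, 277 and 263 RPKM in DMSO replicates 1, 2 and 3. The variable exons had 83.4, 69.3 and 96 RPKM in ASA replicates 1, 2 and 3, against 47.9, 71.4 and 64.5 RPKM in DMSO replicates 1, 2 and 3, and these groups overlapped.

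The variable exons thus stood at 22.7, 11.4 and 23.8% of the constant level in ASA replicates 1, 2 and 3, against 17, 25.8 and 24.6% in DMSO replicates 1, 2 and 3. The difference of means, -3.19 percentage points, was smaller than the spread in either group (exact permutation test, two-sided, p = 0.5, where 3 against 3 libraries cannot go below 0.1). Its sign turned to 0.76 points without ASA replicate 2. Among neighbouring exons, the 11th to 15th over the 16th to 19th, the share was 34.3 ± 2.2% with ASA and 31.2 ± 6.84% with DMSO, a difference of 3.09 points (exact permutation test, two-sided, p = 0.7). No change in the inclusion of the variable exons was detectable with these libraries.

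ASA replicate 2 fell steeply from the 5' to the 3' end of Cd44. Its first listed exon had 1924 RPKM, against 624 and 708 in ASA replicates 1 and 3 and 444 to 504 with DMSO. Its last listed exon had 130.2 RPKM, against 358 and 410.0 in ASA replicates 1 and 3 and 255 to 280.2 with DMSO. The log2 ratio of 5' to 3' exons was 1.32 above the DMSO mean in this library, higher than in 96.8% of the genes with at least 6 exons, and -0.15 and -0.10 in ASA replicates 1 and 3. The high Cd44 value of ASA replicate 2 was carried by the 5' exons.

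**Figure D4:**
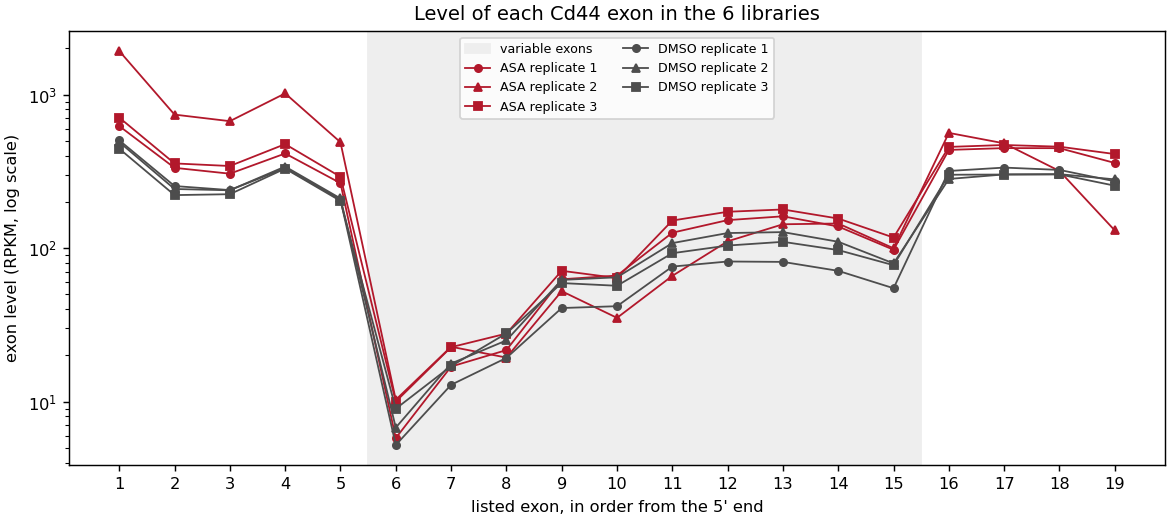
Level of each Cd44 exon in RPKM (log scale) from the 5' to the 3' end, a line for each library, with the variable exons shaded. Constant exons average 278 to 782 and variable exons 7.83 to 133, ASA replicates 1 and 3 run above the DMSO libraries in the constant exons, and ASA replicate 2 falls from 1924 in the first exon to 130.2 in the last.

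Across the whole table no exon passed the adjusted threshold for relative use in limma (0% of 116232 exons), which does not show that none changed. An unadjusted p under 0.05 was reached by 3687 exons, 3.17%, and limma's diffSplice called 52 of 116207, 0.0447%. Without ASA replicate 2, 4 exons were called, 0.00344%. None of the 39 exons of the 4 genes was called in any of the 9 fits of relative exon use. In 4 of the 39 the groups did not overlap in relative use, 2 higher with ASA (the 2nd and 12th of Ctnnb1) and 2 lower (the 2nd of Ccnd1 and the 8th of Cd44). Over all exons tested 5.82% were so separated with ASA higher and 6.49% with ASA lower. The 8th exon of Cd44, the variable exon whose relative use was lowest with ASA against DMSO, differed by -0.74 (log2, limma adjusted p = 0.784).

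The genes around the 4 were read list by list, beside the 11.2% called over all tested genes. The lists are short and were chosen with earlier results of these data known, so their counts are no independent evidence. Differences between lists were not tested. Of 9 tested Wnt ligands and secretion factors 1 rose and 1 fell, 22.2%. Wls, the carrier that brings Wnt proteins to the cell surface, rose 1.95-fold (289 ± 31.7 with ASA, 148 ± 15.1 RPKM with DMSO; SD, n = 3 each; limma adjusted p = 0.0211). Wnt4, a ligand expressed in the developing pituitary, fell 4.23-fold to 2.09 ± 0.509 with ASA, against 9.62 ± 4.21 RPKM with DMSO (limma adjusted p = 0.0240). Among the ligands that did not pass, Wnt9a had 32 ± 14.6 with ASA and 12.3 ± 0.619 RPKM with DMSO (limma adjusted p = 0.0664). Wnt10a was low in every library, at 0.649 to 2.04 with ASA and 2.54 to 8.03 RPKM with DMSO (limma adjusted p = 0.0970).

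Of 13 tested receptors and relays 1 rose and 1 fell, 15.4%, near the 11.2% of all genes. The Frizzled receptor gene Fzd3 was 3.44-fold higher, at 15.2, 33.2 and 22.3 RPKM in ASA replicates 1, 2 and 3 and 7.38, 5.32 and 6.83 RPKM in DMSO replicates 1, 2 and 3 (limma adjusted p = 0.0228). Fzd6 was 1.77-fold lower, at 44.9 ± 9.67 with ASA and 78.3 ± 4.93 RPKM with DMSO (limma adjusted p = 0.0440). Fzd5 had 8.12 ± 2.36 with ASA and 3.55 ± 1.59 RPKM with DMSO and did not pass (limma adjusted p = 0.0962). The Wnt co-receptor gene Ryk had 120, 134 and 144 RPKM in ASA replicates 1, 2 and 3 and 97.2, 87.4 and 101 RPKM in DMSO replicates 1, 2 and 3, without overlap and without passing (limma adjusted p = 0.101).

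Among 15 tested genes of the destruction complex and beta-catenin turnover none passed in limma or in voom, 4 had an unadjusted p under 0.05, and the list median was 0.14 (log2). The smallest p belonged to the casein kinase gene Csnk1e, at 156 ± 75.5 with ASA and 66.3 ± 2.71 RPKM with DMSO (limma adjusted p = 0.0574), and next came the ubiquitin ligase gene Siah1 (adjusted p = 0.0795), the phosphatase subunit gene Ppp2r5a (0.0999) and the deubiquitinase gene Usp7 (0.138). The scaffold gene Apc had 21, 13.2 and 21.5 RPKM in ASA replicates 1, 2 and 3 and 20, 17 and 18.4 RPKM in DMSO replicates 1, 2 and 3. The kinase gene Gsk3b had a log2 fold change of -0.14 ± 0.17 (limma adjusted p = 0.608). None of 18 tested TCF factors and nuclear partners passed in limma or in voom, 1 had an unadjusted p under 0.05, and the list median was -0.07. The chromatin remodelling ATPase gene Smarca4 came nearest (68.9 ± 19.4 with ASA, 104 ± 2.84 RPKM with DMSO, limma adjusted p = 0.109), ahead of Pygo2, Tle3 and Kat5 (0.220 to 0.311). Of the TCF/LEF genes themselves Tcf7l1 was measured, at 0.277 to 1.15 RPKM with ASA and 0.252 to 0.480 RPKM with DMSO, and its mean fell under the filter on low values. The others were not analysed here.

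Among 6 tested secreted or membrane antagonists 1 rose, 16.7%. Wif1, which binds Wnt ligands, was 3.62-fold higher at a low level, with 4.42, 7.26 and 7.57 RPKM in ASA replicates 1, 2 and 3 and 1.13, 2.66 and 1.49 RPKM in DMSO replicates 1, 2 and 3 (limma adjusted p = 0.0341). Sostdc1, an antagonist of LRP receptors and of BMPs, had 1174, 145 and 256 RPKM in ASA replicates 1, 2 and 3 and 1687, 2392 and 1668 RPKM in DMSO replicates 1, 2 and 3, without overlap but short of the threshold (limma adjusted p = 0.0602). Kremen2 and Sfrp1 did not pass (limma adjusted p = 0.179 and 0.198). None of 13 tested adherens junction partners passed in limma or in voom, 2 had an unadjusted p under 0.05, and the list median was -0.28. The alpha-catenin gene Ctnna2 had 18.3 ± 4.04 with ASA and 32.1 ± 6.1 RPKM with DMSO (limma adjusted p = 0.0759), and Pkp4, Iqgap1 and Arvcf followed (0.127 to 0.209).

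Other genes described as beta-catenin targets did not move one way. Of 15 tested, 4 rose and 2 fell, 40% against the 11.2% called over all genes, with a list median of 0.06. Many of them are also driven by other pathways. The helix-loop-helix inhibitor Id2 rose 3.39-fold (202, 185 and 164 RPKM in ASA replicates 1, 2 and 3; 91, 42.2 and 41.1 RPKM in DMSO replicates 1, 2 and 3; limma adjusted p = 0.0211). The AP-1 genes Jun and Fosl1 rose 4.76-fold and 2.96-fold, and the urokinase receptor gene Plaur 1.74-fold. The adhesion gene Nrcam fell 2.32-fold. The mitotic and survival gene Birc5 fell 3.21-fold, to 21.9 ± 3.7 with ASA, against 78.3 ± 40.1 RPKM with DMSO. The adjusted p of these 6 genes in limma lay between 0.0211 and 0.0453. Birc5 did not pass in voom (adjusted p = 0.0598). Without ASA replicate 1 neither Birc5 nor Plaur passed (limma adjusted p = 0.0667 and 0.0551), in a fit that called 16.2% of all genes. Axin2, a feedback inhibitor and the target most closely tied to beta-catenin, had 6.44, 2.46 and 6.12 RPKM in ASA replicates 1, 2 and 3 and 3.76, 5.90 and 3.50 RPKM in DMSO replicates 1, 2 and 3. These groups overlapped (log2 fold change 0.11 ± 0.44 SE, limma adjusted p = 0.888), and the 95% interval of -0.92 to 1.13 spans both directions.

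**Figure D5:**
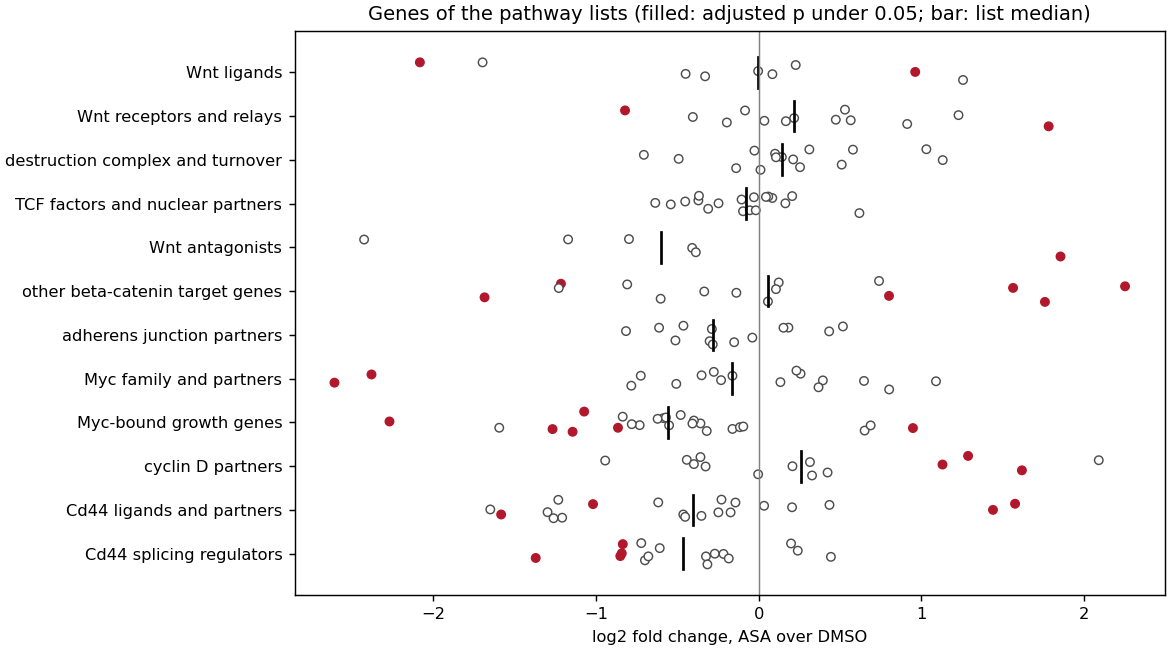
Log2 fold change of ASA over DMSO for each tested gene of the pathway lists, a list per line, filled where the adjusted p was under 0.05, with the list median as a bar. Medians range from -0.60 for the Wnt antagonists to 0.26 for the cyclin D partners, and no gene of the destruction complex, TCF or adherens junction lists is filled.

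Around cyclin D1, 3 of 14 tested partner genes rose and none fell, 21.4% called against 11.2% of all genes (6.21% higher, 4.99% lower). The kinase inhibitor Cdkn1a was 2.44-fold higher (182 ± 60.9 with ASA, 72.6 ± 17.2 RPKM with DMSO, limma adjusted p = 0.0402). Fbxo4 and Fbxo31, which encode F-box proteins reported to direct cyclin D1 to degradation, were 3.07-fold and 2.19-fold higher (limma adjusted p = 0.0285 and 0.0349). Cryab, a small heat shock protein gene whose product works with Fbxo4, had 6.48, 35.7 and 10.4 RPKM in ASA replicates 1, 2 and 3 and 4.48, 1.76 and 3.65 RPKM in DMSO replicates 1, 2 and 3 (limma adjusted p = 0.0741). Ccnd3, another D-type cyclin gene, had 144.5, 107 and 96.1 RPKM in ASA replicates 1, 2 and 3 and 162, 145 and 133 RPKM in DMSO replicates 1, 2 and 3, with overlap (limma adjusted p = 0.278). Ccnd2 was not analysed here. Ccnd1 made up 75.1, 85.8 and 81.3% of the summed level of both cyclins in ASA replicates 1, 2 and 3, against 63.8, 68.7 and 66.7% in DMSO replicates 1, 2 and 3. The groups did not overlap, and the difference of 14.3 percentage points had the smallest p that 3 against 3 libraries allow (exact permutation test, two-sided, p = 0.1).

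Around Myc, 2 of 17 tested family members and partners fell, 11.8% called, near the 11.2% of all genes. The kinase gene Aurka, whose protein stabilises N-MYC, fell 6.09-fold (3.96 ± 1.28 with ASA, 27.1 ± 14.8 RPKM with DMSO, limma adjusted p = 0.0239). Cip2a, which encodes an inhibitor of the phosphatase that destabilises MYC, fell 5.2-fold (limma adjusted p = 0.0435), and 8.4-fold without DMSO replicate 2. It had 2.37, 3.05 and 1.85 RPKM in ASA replicates 1, 2 and 3 and 25.4, 4.83 and 16.8 RPKM in DMSO replicates 1, 2 and 3. Without DMSO replicate 1 neither Aurka nor Cip2a passed (limma adjusted p = 0.0875 and 0.142). Cip2a also did not pass in voom (adjusted p = 0.0547) or without ASA replicate 1 (limma adjusted p = 0.0627). The MYC partner gene Max had 34.7, 64.6 and 61.8 RPKM in ASA replicates 1, 2 and 3 and 23.9, 37.9 and 28.8 RPKM in DMSO replicates 1, 2 and 3 (limma adjusted p = 0.119), with overlap. The list genes Mxd4 and Mlxip had no overlap and did not pass (limma adjusted p = 0.0534 and 0.0991), Mxd4 lower and Mlxip higher in the ASA libraries.

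Growth genes bound by MYC had mostly lower values with ASA. Of 24 tested, 5 fell and 1 rose, 25% called against 11.2% of all genes (6.21% higher, 4.99% lower). A negative log2 fold change was found in 21, with a list median of -0.56 against -0.06 for all tested genes. Since that median is below 0, negative values were also the commoner ones over all tested genes. Lactate dehydrogenase A, Ldha, fell 4.82-fold, the nucleoside diphosphate kinase gene Nme1 2.41-fold, and the nucleolar genes Nop56 and Fbl 2.21-fold and 2.1-fold. The initiation factor gene Eif4a1 fell 1.82-fold, but by the median exon its value was 1.17-fold lower and not called (limma adjusted p = 0.570). Odc1, the first enzyme of polyamine synthesis, rose 1.93-fold. The adjusted p of these 6 genes in limma lay between 0.0121 and 0.0472.

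Among 20 tested ligands and partners of CD44, 2 rose and 2 fell, 20% called against 11.2% of all genes. Spp1, which encodes the CD44 ligand osteopontin, rose 2.71-fold, with 135, 75.1 and 99.7 RPKM in ASA replicates 1, 2 and 3 and 43.6, 30.4 and 38.1 RPKM in DMSO replicates 1, 2 and 3 (limma adjusted p = 0.0211). The hyaluronidase gene Hyal1 rose 2.98-fold and the hyaluronan synthase gene Has3 fell 2.99-fold (limma adjusted p = 0.0253 and 0.0315). Has3 was low, at 0.978 ± 0.187 with ASA and 3.11 ± 0.452 RPKM with DMSO. The cytoskeletal adaptor gene Ank3 fell 2.02-fold (limma adjusted p = 0.0467).

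Among 16 tested splicing factors that act on Cd44 or similar exons, 4 fell and none rose, 25% called against 11.2% of all genes (4.99% lower), with a list median of -0.47. Hnrnpm fell 2.58-fold, Ptbp1 1.8-fold, Khdrbs1 (the RNA-binding protein Sam68) 1.79-fold and Srsf1 1.78-fold (limma adjusted p between 0.0389 and 0.0483). The epithelial regulator Esrp1, which favours the variable exons, had 75.3, 97.1 and 97.6 RPKM in ASA replicates 1, 2 and 3 and 56.2, 76.1 and 66.1 RPKM in DMSO replicates 1, 2 and 3, with overlap (limma adjusted p = 0.177).

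Over all these lists 178 different genes were tested, of which 13 rose and 17 fell, 16.9% called against 11.2% of all genes. All 30 calls were lost without ASA replicate 3 or without DMSO replicate 3, where no gene of the table was called. Without DMSO replicate 1 there was 1 call in each direction, and without DMSO replicate 2 there were 2 higher and 8 lower, in fits that called 91 and 632 genes of the table. Without ASA replicate 2 there were 17 higher and 24 lower, 23% against 20.9% of all genes. With the median exon as gene value the shares were 8.43% against 7.58%, and without the variance trend 8.99% against 9.03%.

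CD44 is also abundant on fibroblasts and leukocytes, so the markers of other cells are given here. Of 6 fibroblast markers 2 were measured. Their summed level was 2138 to 3279 RPKM with ASA and 1104 to 1164 RPKM with DMSO, nearly all of it Dcn, the proteoglycan decorin, which rose 2.49-fold (limma adjusted p = 0.0213). The other, Lum, did not pass (limma adjusted p = 0.734), and the collagen markers were not analysed here. Of 8 leukocyte markers 2 were measured, Cd3e and Cd14, with a sum of 12 to 30.2 RPKM with ASA and 39.6 to 57.5 RPKM with DMSO. Cd3e fell 2.8-fold (limma adjusted p = 0.0209), and Cd14 did not pass (0.165). Of 7 folliculostellate markers 1 was measured, Gja1, at 5.71 to 71.2 RPKM with ASA and 12.8 to 49.6 RPKM with DMSO, and the 4 endothelial markers were not analysed here. Of 14 pituitary lineage markers 8 were measured, with a sum of 15086 to 63076 RPKM with ASA and 23116 to 63064 RPKM with DMSO, most of it Prl. Among them Cga, the common subunit of the glycoprotein hormones, fell to 2.86 ± 1.54 with ASA, against 25.8 ± 2.33 RPKM with DMSO (limma adjusted p = 0.0137). The part of such cells in the Cd44 values was not tested. In these bulk libraries fewer cells of a type and less RNA per cell cannot be told apart.

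The patterns of the 4 genes over the 6 libraries were set beside each other and beside the 9493 other genes with a symbol and a mean of at least 5 RPKM, as a description over libraries that fall into the same 2 groups. Ccnd1 and Cd44 were alike (Pearson r = 0.982 on log2 levels), both with ASA replicate 2 highest. Ctnnb1 ran opposite to Cd44 (r = -0.925) and Ccnd1 (r = -0.889), and Myc was less like Ccnd1 (r = 0.384) and Cd44 (r = 0.451). The genes most like Ctnnb1 were Dus3l (r = 0.997), Dpysl2 and Psmb7 (0.996 each). Ctsd (0.999), Map1lc3a (0.996) and Zdhhc9 (0.995) were most like Ccnd1. Alkbh2 (0.991), Tstd2 (0.990) and Hmga1 (0.985) were most like Myc, and Usp22, Rnf11l1 (0.998 each) and Foxj2 (0.997) most like Cd44. With 6 libraries, 319 to 937 genes had an r above 0.9 with each of the 4 genes. All these correlations include ASA replicate 2, whose gene values depend on the exons counted, and none is given without it.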

How the data were processed

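Per the labels' protocols, total RNA was made into directional libraries of polyadenylated RNA. Per the submitters' processing notes, which state no role, the build was Rnor_6.0 and the tools were edgeR 3.26.8, TopHat2 2.1.0 with Bowtie2, cutadapt 1.14 and Trim Galore 0.4.1. No source used here gives the counting tool or its use of strand, so reads of overlapping antisense genes cannot be told apart. The deposited values are log2 RPKM per exon and library, with no other value columns. They were turned back into reads by removing a constant of 0.00292 reads per 1000000. Of values under 1000 reads, 96.2% to 97.1% were then whole within 0.02 read. Each deposited exon has over 10 reads in 4 or more of the 6 libraries, and exons seen in 1 group only are thus absent. Exon length in bases is the deposited table's other measure.

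Gene RPKM was the sum of reads over listed exons per kilobase. Genes with a mean of at least 0.5 RPKM were tested with limma 3.58.1 (R 4.3.3; trend, two-sided, no covariates). Relative exon use, the deposited log2 RPKM of an exon minus that of its gene, was tested in the same way. Both fits were checked for bias on simulated data. The simulated noise was independent and equally wide in all libraries, so the check does not cover the unevenness of ASA replicate 2. The 4 genes and all lists were chosen with earlier results of these data known, so list counts are no independent evidence. The text names the 4 genes, up to 4 genes of smallest p per list and all called list genes where these number 6 or fewer. It also names, for each of the 4 genes, its exons of extreme level or relative use and the 3 genes of highest Pearson correlation. Axin2, Apc, Gsk3b, Ccnd3, Max, Esrp1 and Prl were added after their values were seen. List symbols were matched by symbol or RefSeq synonym, and sequences were not used here. Figures were drawn with matplotlib 3.10.9.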

Additional observations from a re-analysis of the deposited data

How the results depend on the processing

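The 4 genes kept their direction under a pseudocount of 1, no filter on low values, median-of-ratios rescaling, voom on recovered reads, no variance trend, the median exon as gene value and each library left out. The call of Ctnnb1 was lost under rescaling (log2 fold change -0.63, adjusted p = 0.0559), without the variance trend (-0.67, 0.0783) and with the median exon (-0.68, 0.0632). These fits called 12.6, 9.03 and 7.58% of all genes in that order. The cause was not tested. When each library was dropped in turn the log2 fold change of Ctnnb1 ran from -0.76 to -0.62. That of Ccnd1 ran from 0.56 to 0.88 and that of Cd44 from 0.51 to 0.79. The genes called, 1400 in all, numbered 0 to 2618 over these fits. With no call, without ASA replicate 3 or DMSO replicate 3, limma gave 2924 and 2342 genes an unadjusted p under 0.05. The pathway calls, 30 in all, numbered 16 without the trend, 15 with the median exon and 0 to 41 with a library left out. Exons called in relative use numbered 0, 52 by diffSplice and 0 to 4 with a library left out. The Cd44 ratio of variable to constant exons, an analysis added after seeing the data, differed by -5.93 to 0.76 percentage points with a library left out, and turned positive without ASA replicate 2 (0.76) and, with all libraries, for the 11th to 15th over the 16th to 19th exons (3.09). With flanking constant exons only it was -3.48. The difference in the Ccnd1 share of the summed Ccnd1 and Ccnd3 level ran from 11.8 to 17.1 points with a library left out. The SD of this share between replicates was 5.35 with ASA and 2.48 with DMSO. Library weights were not used, since their estimation did not converge (weights of 0.0543 to 31.8). No paired analysis was possible because the labels give no replicate numbers. Each of the 4 genes had at least 6300 reads in every library, while variable Cd44 exons were far lower.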
